A study of Rattus norvegicus with 12 samples.

Results

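A set of 208 transcripts was higher in rat aortic smooth muscle cells given a virus meant to overexpress Cklf1 and lower in such cells given a virus meant to knock Cklf1 down, each against its own control virus. They were taken from 29330 Ensembl transcripts by a rule on the measured values. The rule asked for a mean of 2 to under 400 FPKM over the 12 libraries, where FPKM counts fragments scaled to transcript length and library size. It asked that the mean of log2(FPKM + 1) be at least 0.3 higher in Ad-Cklf1 than in Ad-GFP and at least 0.3 lower in Ad-shRNA Cklf1 than in Ad-shRNA scramble, with no overlap of the 3 libraries on either side. Finally, the mean of the 6 hairpin libraries had to lie within 1.5 of the mean of the other 6. All 4 groups and all 12 libraries thus took part in choosing the members. Their differences in both comparisons are given below as a description, with no test.

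The cells were smooth muscle cells in primary culture from the medial layer of the thoracic aorta of male Sprague-Dailey rats (the labels' spelling), obtained by explant and used at passage 4. Ad-GFP cells carried an adenovirus with green fluorescent protein, and Ad-Cklf1 cells one that overexpresses Cklf1. Ad-shRNA scramble cells carried a scrambled short hairpin RNA, and Ad-shRNA Cklf1 cells a hairpin against Cklf1; they are called scramble and knockdown here. Every group met an adenovirus overnight, was cultured until 75% confluent and was then starved in 0.2% serum (24 to 32 h). Both hairpin groups also received 25 µg/L of the cytokine TNF alpha (TNF here) over 24 h, which neither of the other groups did. TNF, the viral insert and any batch of that arm therefore changed together. Each group held 3 libraries, called triplicates in the labels, and no label ties them to separate rats or separate cultures.

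CKLF1 is a secreted chemokine-like factor of the CKLF-like MARVEL transmembrane domain family, known for attracting leukocytes and studied for its part in the growth and migration of arterial smooth muscle cells. Smooth muscle cells of the aortic media can move from a contractile to a dividing, matrix-producing state after injury. TNF is an inflammatory cytokine that acts on them largely through NF-kappaB. The files list transcripts by Ensembl identifier without gene names, and 0 of the identifiers matched the gene table used here. The members' genes, roles and sequences are therefore not given, the level of Cklf was not checked, and smooth muscle markers were not examined. Reads of a gene are shared out among its isoforms in such values, so some members may be isoforms of 1 gene and do not count as independent. In bulk RNA, fewer cells that make a transcript and less of it per cell cannot be told apart.

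Most of the differences that define the members were modest. A mean in range was found for 12046 transcripts. Higher in Ad-Cklf1 by the rule's measure were 665 of these (5.52%), and lower in the knockdown were 1171 (9.72%). Both held for 215, and the limit on the difference between the arms removed 7. With the same limits, 396 transcripts went the opposite way in both comparisons, 25 were higher in both and 20 lower in both. Ad-Cklf1 exceeded Ad-GFP by a median of 0.41 log2 units over the 208 members, with a range of 0.30 to 0.94, where the median over all transcripts in range was 0.0047. The knockdown lay below scramble by a median difference of -0.50, from -1.74 to -0.30, against 0.0086 over all in range. As ratios of mean FPKM, Ad-Cklf1 stood at 1.23 to 2.15 times Ad-GFP, with a median of 1.37. Scramble stood at 1.24 to 4.11 times the knockdown, with a median of 1.47. No member was higher in Ad-Cklf1 by as much as 1 log2 unit (0 of 208), and 10 were lower in the knockdown by 1 or more. The difference in the knockdown was the larger for 151 members and that in Ad-Cklf1 for 57. The smaller of the 2 differences was under 0.4 for 126 members and at least 0.5 for 31.

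**Figure D1:**
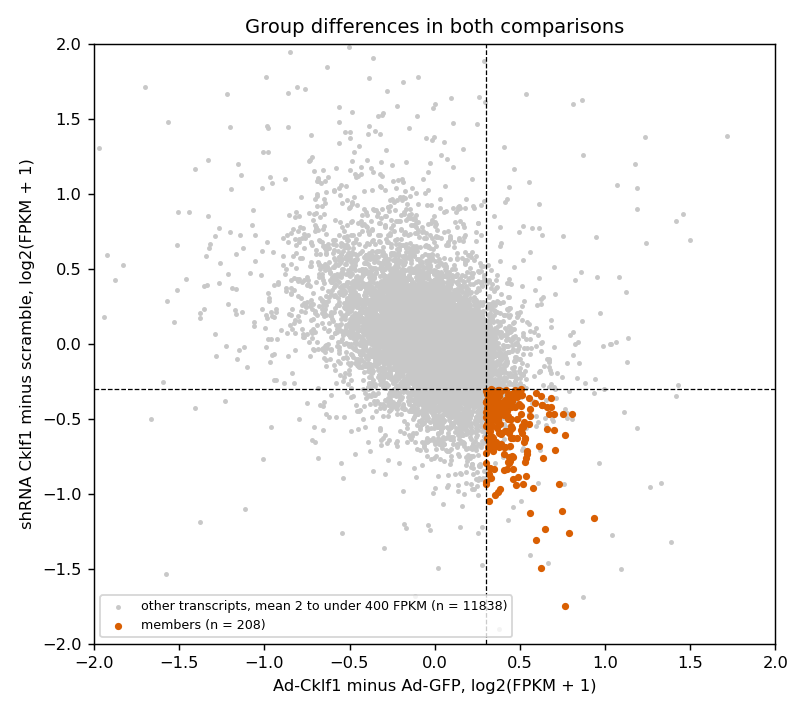
Each point is 1 transcript with a mean of 2 to under 400 FPKM, with the Ad-Cklf1 minus Ad-GFP difference on the x axis and the shRNA Cklf1 minus scramble difference on the y axis, both in log2(FPKM + 1). Members (orange, n = 208) fill the lower right corner beyond the dashed lines at 0.3 and -0.3, most of them close to the lines; 50 other transcripts lie outside the axes, which end at 2 and -2.

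The values next to the threshold show how fine that edge is. The members just inside were ENSRNOT00000014152, with differences of 0.51 and -0.30 in overexpression and knockdown, ENSRNOT00000071098 (0.30 and -0.49) and ENSRNOT00000004676 (0.30 and -0.92). Just outside were ENSRNOT00000017927, at 0.299 and -0.34, ENSRNOT00000024362, at 0.35 and -0.299, and ENSRNOT00000005262, at 0.299 and -0.58. Transcripts that met every other condition with a mean outside the range numbered 22 below 2 FPKM and 4 at 400 FPKM or above. ENSRNOT00000017127, which was at 3040, 2911 and 3523 FPKM with Ad-Cklf1, is no member. Its mean of 792 FPKM and its difference of -5.31 between the arms are outside the limits, and the files do not say whether it belongs to Cklf.

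The members ranged from low to high abundance. Their mean FPKM over 12 libraries ran from 2.00 to 359, with a median of 13.7 (11.9 for all in range), and single values ran from 0.451 to 469 FPKM. None was listed at 0 in any library, and 5 fell below 1 FPKM in a library. Of the members, 81 had a mean of 2 to under 10 FPKM, 94 one of 10 to under 50, and 33 one of 50 to under 400. These are 38.9%, 45.2% and 15.9% of the members, where the same bands hold 44.4%, 43.5% and 12.1% of all transcripts in range. The median ratio of Ad-Cklf1 to Ad-GFP was 1.40, 1.33 and 1.36 in these bands, and that of scramble to knockdown 1.56, 1.42 and 1.49. The rule's threshold is on log2(FPKM + 1), so a low transcript needed a larger ratio to enter. Differences between the bands are in part set by this.

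Summed over the 208 members, the level was 5554 ± 196 FPKM with Ad-GFP, 7661 ± 199 with Ad-Cklf1, 9129 ± 305 with scramble and 6071 ± 649 with the knockdown (SD, n = 3 each). By group mean, Ad-GFP was lowest and scramble with TNF highest. Ad-GFP and knockdown libraries overlapped, since knockdown replicate 3, at 5326 FPKM, was below every Ad-GFP library (5431 to 5780). The rule fixed that Ad-GFP lies below Ad-Cklf1 and the knockdown below scramble, so these parts of the order are no result. The 10 most abundant members held 32.7% of this sum.

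Which samples were alike depended on the transcript. The rule fixes that Ad-GFP lies below Ad-Cklf1 and the knockdown below scramble, and does not set how the pairs stand to each other. The highest group mean was that of scramble for 143 members and that of Ad-Cklf1 for 65. The lowest was that of Ad-GFP for 116 and that of the knockdown for 92. All 4 groups were free of overlap from one to the next for 52 members (25.0%, against 8.29% of all transcripts in range). The rule itself required some of these separations, so nothing is read from that share. Only orders that meet the rule could occur among the members, so the share of all transcripts in range with each order stands beside the count for reference and is no comparison.

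**Figure D2:**
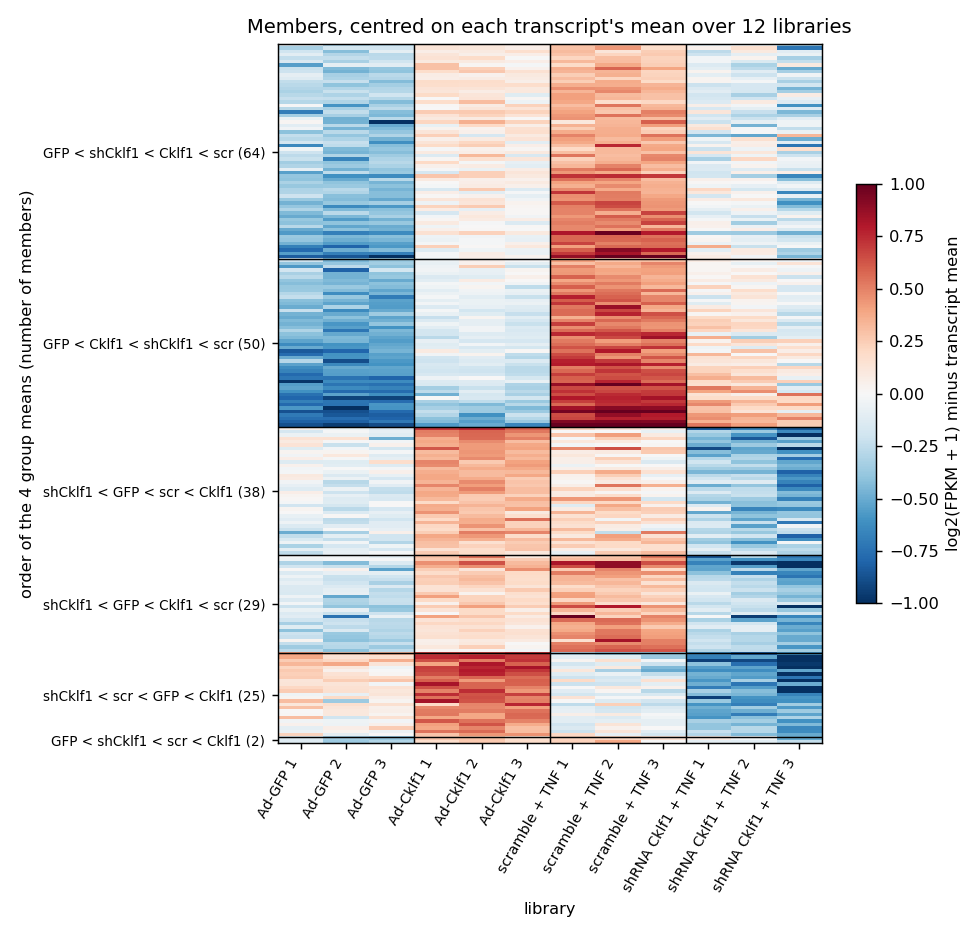
Rows are the 208 members and columns the 12 libraries, and colour gives log2(FPKM + 1) minus the mean of the transcript over the libraries, cut at -1 and 1. Rows are grouped by the order of the 4 group means, with the number of members beside each order (scr, scramble); the largest block, of 64, has Ad-GFP lowest and scramble highest with the other groups between.

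In the most frequent order, seen in 64 members (30.8%, where 5.21% of all transcripts in range have it), Ad-GFP was lowest, then the knockdown, then Ad-Cklf1, and scramble was highest. ENSRNOT00000038532 had the largest difference in Ad-Cklf1 of all members. It was at 14.8, 14.6 and 12.8 FPKM in Ad-GFP and at 26.9, 28.7 and 28.0 FPKM in Ad-Cklf1. In scramble it was at 51.1, 61.5 and 57.0 FPKM and in the knockdown at 28.8, 26.7 and 19.5. Ad-Cklf1 and the knockdown overlapped between a low Ad-GFP and a high scramble, and the differences were 0.94 and -1.16 log2 units. For ENSRNOT00000011237, Ad-GFP was at 28.8, 26.4 and 27.5 FPKM, Ad-Cklf1 at 48.0, 50.6 and 46.2, scramble at 76.2, 86.6 and 75.2, and the knockdown at 33.5, 33.2 and 30.5. No groups of this transcript overlapped, and the knockdown stood just above Ad-GFP. Its differences were 0.79 and -1.26.

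ENSRNOT00000023530 followed the same order at 40.3 ± 3.96 FPKM with Ad-GFP, 68.1 ± 4.45 with Ad-Cklf1, 97.8 ± 1.31 with scramble and 45.0 ± 7.30 with the knockdown (SD, n = 3 each). Knockdown and Ad-GFP libraries overlapped, and the differences were 0.74 and -1.11. ENSRNOT00000005666 was more abundant, at 106 ± 9.75, 173 ± 15.2, 223 ± 16.1 and 137 ± 20.5 FPKM in the same groups (SD, n = 3 each). Its differences were nearly equal in size, 0.70 and -0.71.

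That order also held members at low levels. ENSRNOT00000087181 was at 1.97, 1.72 and 2.18 FPKM with Ad-GFP, 4.61, 3.80 and 4.11 with Ad-Cklf1, 5.30, 6.08 and 6.05 with scramble and 5.15, 3.07 and 3.75 with the knockdown. Its knockdown libraries reached almost to scramble, and its differences were 0.80 and -0.47. ENSRNOT00000085573 was at 1.95, 1.10 and 0.451 FPKM with Ad-GFP, 2.38, 2.73 and 2.40 with Ad-Cklf1, 2.13, 2.68 and 3.42 with scramble and 1.51, 1.73 and 1.83 with the knockdown. Its ratio of Ad-Cklf1 to Ad-GFP, 2.15, was the highest of the set. The difference of 0.75 was 0.49 without Ad-GFP replicate 3.

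The second most frequent order, with 50 members (24.0% against 12.5% of all in range), placed the means of both TNF-treated groups above both others. Knockdown and Ad-Cklf1 libraries overlapped for 30 of these members and were apart for 20. Those named next are among the 20. ENSRNOT00000026558 had the largest difference between the arms. It was at 67.4, 63.8 and 66.6 FPKM with Ad-GFP, 83.6, 87.6 and 78.6 with Ad-Cklf1, 258, 279 and 259 with scramble and 180, 166 and 149 with the knockdown. The 6 hairpin libraries averaged 1.48 log2 units above the other 6, while its differences within the arms were 0.33 and -0.69. ENSRNOT00000087697 was at 5.68 ± 0.262, 7.41 ± 0.522, 20.8 ± 0.0773 and 13.2 ± 0.510 FPKM in Ad-GFP, Ad-Cklf1, scramble and knockdown (SD, n = 3 each). ENSRNOT00000025928 stood at 15.6 ± 0.276, 20.5 ± 1.59, 46.1 ± 2.00 and 37.1 ± 2.19 FPKM in these groups (SD, n = 3 each). In both, the knockdown lay far above Ad-Cklf1. ENSRNOT00000028379 combined a separation of the arms of 0.99 with a high ratio of Ad-Cklf1 to Ad-GFP. Its Ad-GFP libraries were at 10.5, 9.45 and 9.45 FPKM and its Ad-Cklf1 libraries at 18.8, 16.8 and 16.5. Scramble was at 33.6, 32.7 and 34.3 FPKM and the knockdown at 21.5, 21.7 and 21.9, a tight group just above Ad-Cklf1.

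For 38 members (18.3% against 2.73% of all in range) the knockdown was lowest and Ad-Cklf1 highest, with Ad-GFP below scramble between them. ENSRNOT00000050227 was at 4.32, 3.97 and 3.61 FPKM in Ad-GFP and 7.40, 7.62 and 6.67 in Ad-Cklf1. In scramble it was at 5.0, 4.60 and 4.34 FPKM, and in the knockdown at 1.85, 2.22 and 1.80. The controls were close to each other, Ad-Cklf1 lay above both and the knockdown below both, with differences of 0.73 and -0.93. ENSRNOT00000061284 was at 79.9 ± 4.57 FPKM with Ad-GFP, 121 ± 10.4 with Ad-Cklf1, 120 ± 15.4 with scramble and 48.3 ± 10.0 with the knockdown (SD, n = 3 each). Scramble and Ad-Cklf1 could not be separated here, and the difference of -1.31 in the knockdown was larger than the 0.59 in Ad-Cklf1.

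Another 29 members (13.9% against 3.28% of all in range) had the knockdown lowest and scramble highest, with Ad-GFP and Ad-Cklf1 between. The median difference in the knockdown was -0.78, the largest among the orders. In this order the knockdown and scramble means enclose the other means. The difference in the knockdown therefore had to exceed that in Ad-Cklf1, and nothing is read from its size. ENSRNOT00000068216 had the largest difference in the knockdown of all members. It was at 5.05, 4.54 and 5.81 FPKM with Ad-GFP, 9.29, 10.6 and 8.32 with Ad-Cklf1, 12.1, 12.9 and 10.7 with scramble and 3.71, 2.84 and 2.14 with the knockdown. Scramble was 4.11 times the knockdown, a difference of -1.74, and Ad-Cklf1 was 1.83 times Ad-GFP. ENSRNOT00000005746 was at 12.7, 12.5 and 11.9 FPKM with Ad-GFP, 19.2, 20.6 and 19.1 with Ad-Cklf1, 23.7, 28.2 and 20.8 with scramble and 9.98, 9.75 and 4.98 with the knockdown. ENSRNOT00000025966 was at 74.8, 66.0 and 65.0 FPKM with Ad-GFP, 104, 116 and 104 with Ad-Cklf1, 137, 152 and 119 with scramble and 76.2, 74.1 and 32.5 with the knockdown. In both of these, knockdown replicate 3 lay far below its group, and the differences of -1.49 and -1.24 were -1.21 and -0.84 without it.

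The means of both TNF-treated groups lay below the others for 25 members (12.0% against 6.13% of all in range). Scramble and Ad-GFP libraries overlapped for 12 of these members and were apart for 13. Those named next are among the 13. ENSRNOT00000001098 was at 56.9 ± 3.81 FPKM with Ad-GFP, 71.9 ± 1.56 with Ad-Cklf1, 34.8 ± 1.30 with scramble and 27.2 ± 2.17 with the knockdown (SD, n = 3 each). ENSRNOT00000084594, among the 5 most abundant members, was at 274, 232 and 235 FPKM with Ad-GFP, 350, 359 and 340 with Ad-Cklf1, 195, 192 and 162 with scramble and 131, 146 and 96.1 with the knockdown. ENSRNOT00000010811 was at 12.1 ± 0.756, 15.7 ± 1.23, 10.2 ± 0.714 and 4.57 ± 0.227 FPKM in these groups (SD, n = 3 each). No groups of these 3 transcripts overlapped. The 2 remaining members had Ad-GFP lowest and Ad-Cklf1 highest, with the knockdown below scramble between.

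**Figure D3:**
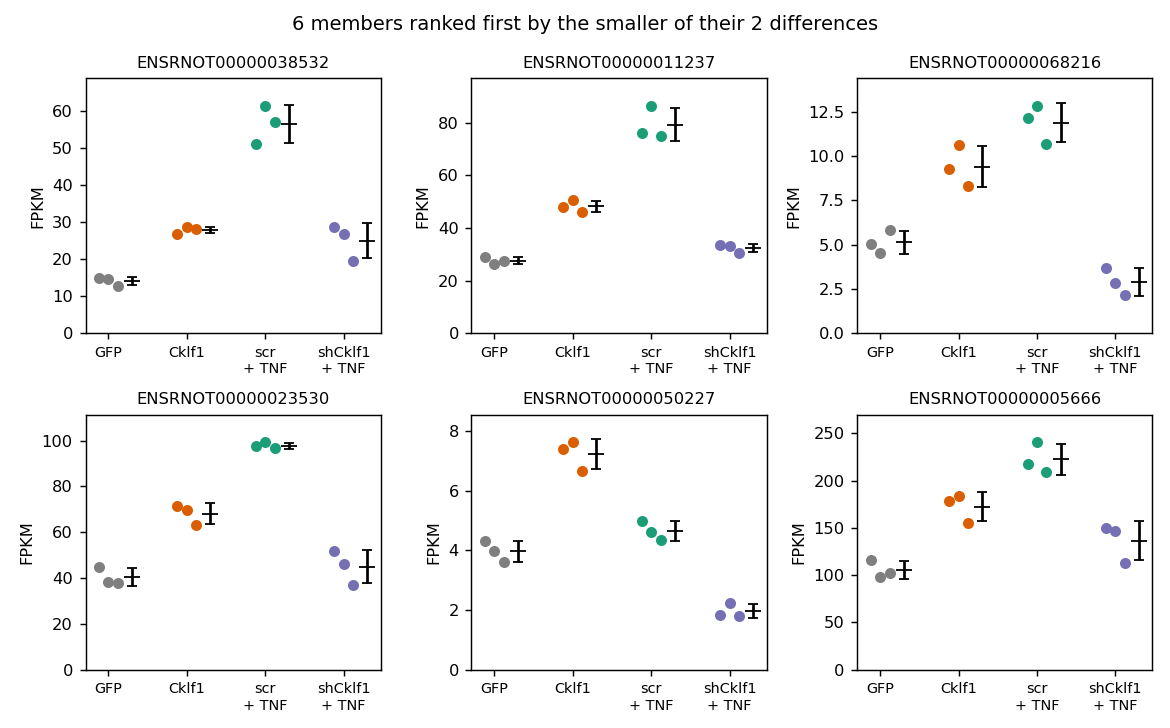
FPKM in each of the 12 libraries for the 6 members with the largest value of the smaller difference; points are libraries, and the black mark with bars beside them is the mean ± SD (n = 3). In all but ENSRNOT00000050227 scramble with TNF is the highest group, reaching 61.5 FPKM in ENSRNOT00000038532, and Ad-Cklf1 lies above Ad-GFP throughout.

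The 4 other members among the 5 most abundant had differences of 0.33 to 0.45 in Ad-Cklf1. ENSRNOT00000007947, the most abundant at a mean of 359 FPKM, was at 323, 294 and 293 FPKM with Ad-GFP, 387, 390 and 364 with Ad-Cklf1, 451, 469 and 424 with scramble and 325, 331 and 250 with the knockdown. ENSRNOT00000007255 was at 250.0, 272 and 262 FPKM with Ad-GFP, 364, 362 and 341 with Ad-Cklf1, 412, 459 and 407 with scramble and 275, 276 and 199 with the knockdown. In both, the knockdown overlapped Ad-GFP, with replicate 3 the lowest library of all. ENSRNOT00000035814 was at 174 ± 0.169 FPKM with Ad-GFP, 232 ± 3.66 with Ad-Cklf1, 287 ± 9.26 with scramble and 179 ± 21.5 with the knockdown (SD, n = 3 each). ENSRNOT00000027260 was at 248, 207 and 213 FPKM with Ad-GFP, 305, 299.7 and 306 with Ad-Cklf1, 353, 359 and 352 with scramble and 313, 310.1 and 229 with the knockdown. Its difference in the knockdown, -0.34, was -0.19 without knockdown replicate 3, which is short of the rule's threshold.

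One library was often the lowest of the knockdown group. Knockdown replicate 3 was the lowest library of its group for 135 of 208 members (64.9%, against 38.6% of all transcripts in range). Replicates 1 and 2 were lowest for 31 and 42. The median deviation of the members from their group mean was -0.094 log2 units in replicate 3, against 0.080 and 0.038 in replicates 1 and 2. Over all transcripts in range these medians were -0.00097, 0.0036 and 0.0038. In the other 9 libraries the members' median deviation lay between -0.035 and 0.048. The pattern was strongest at high levels. Replicate 3 was lowest for 42 of 81 members under 10 FPKM (51.9%, against 34.5% of all in that band), 62 of 94 members from 10 to under 50 FPKM (66.0% against 39.6%) and 31 of 33 members from 50 FPKM (93.9% against 49.9%). The median SD between knockdown libraries was 0.149 log2 units for the members and 0.103 for all in range, while in each of the other groups the members' median SD was 0.072 to 0.087 and that of all in range 0.072 to 0.085. These libraries helped to choose the members, so the counts describe the set and test nothing.

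**Figure D4:**
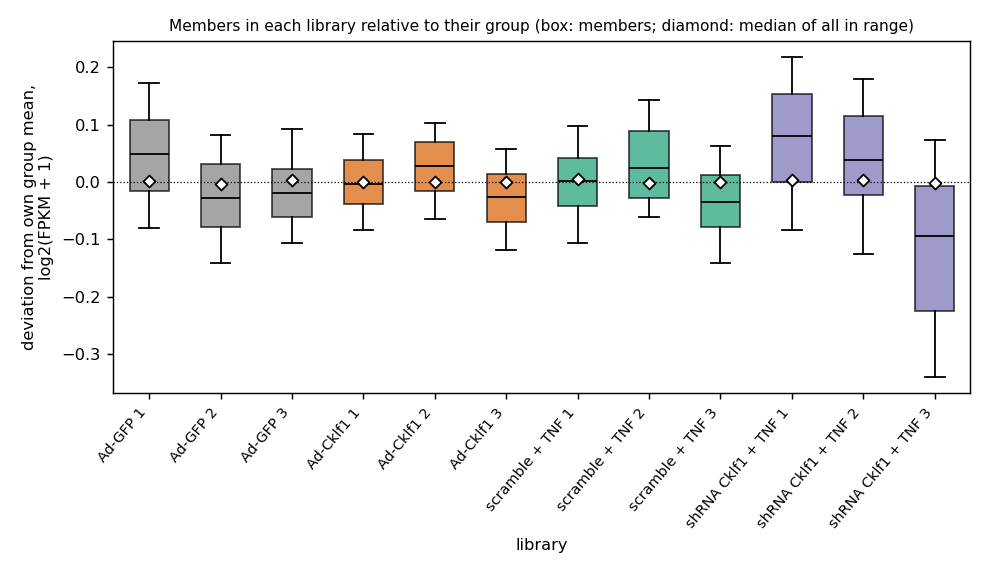
For each library, the box gives the quartiles and the line the median of the members' deviations from their own group mean in log2(FPKM + 1), with whiskers at the 10th and 90th percentiles; the diamond is the median of all transcripts in range. Knockdown replicate 3 has its box below 0, with a median of -0.094, while all diamonds lie near 0.

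Without knockdown replicate 3 the members' median difference in the knockdown was -0.45 in place of -0.50, and 184 of 208 were still at -0.3 or below. The difference was smaller in size without it for 158 members, and for 18 it moved by over 1.5 times. Members of at least 50 FPKM changed the most, from a median of -0.58 to -0.45. ENSRNOT00000017127, whose difference in Ad-Cklf1 was 8.91, was at 1.52, 0.966 and 1.84 FPKM in knockdown replicates 1 to 3, so replicate 3 was not its lowest. These values are low and the transcript is not known to belong to Cklf, so nothing about the strength of the knockdown is read from them.

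Between the arms the members leaned towards the TNF-treated side. The mean of the 6 hairpin libraries was above that of the other 6 for 134 members and below it for 74, a share above of 64.4% against 47.8% of all transcripts under the same limits. The median difference was 0.17 log2 units for the members and -0.018 for all transcripts under these limits. In limma's test across all transcripts, 105 members (50.5%) passed as higher in the hairpin arm and 52 (25.0%) as lower, where 29.0% and 33.3% of the transcripts under the same limits did (adjusted p below 0.05). The rule capped the size of this difference, so the counts are given as a description. Complete separation of the 6 hairpin libraries from the other 6 was rarer, with all 6 above for 20 members (9.62%, against 13.8% of those under the limits) and all 6 below for 13 (6.25% against 14.9%). The rule required a gap between the groups inside each arm, which makes such separation harder to reach. Nothing is therefore read from these shares.

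**Figure D5:**
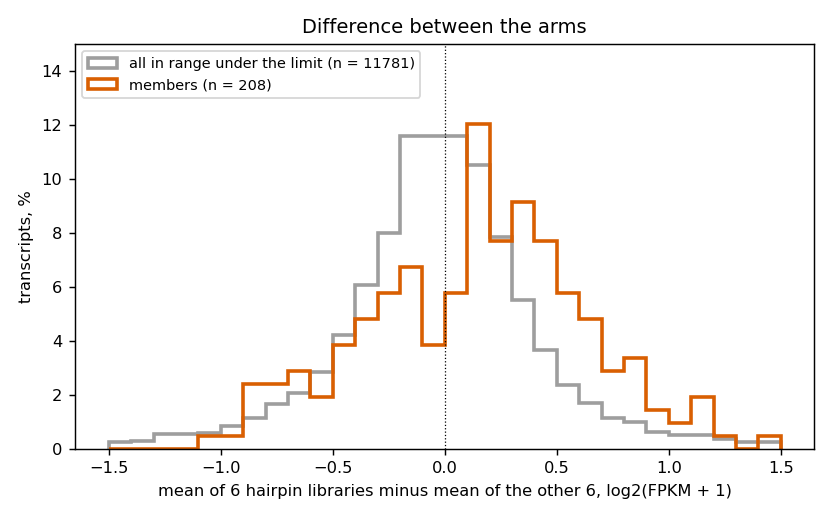
The x axis gives the mean of the 6 hairpin libraries minus the mean of the other 6 in log2(FPKM + 1), in steps of 0.1, and the y axis the percentage of transcripts in each step, for the members (orange, n = 208) and all transcripts under the same limits (grey, n = 11781). The members spread to both sides, from -1.03 to 1.48, with more of them above 0.

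Levels were also set side by side across the arms. Scramble was above Ad-GFP in all 3 libraries for 167 members (80.3%, against 32.9% of all in range) and below in all 3 for 13 (6.25% against 34.7%). Scramble was above Ad-Cklf1 without overlap for 124 members (59.6% against 30.4%) and below it for 44 (21.2% against 33.3%). For the knockdown against Ad-GFP the counts were 80 above (38.5% against 27.3%), 58 below (27.9% against 30.0%) and 70 overlapping. Against Ad-Cklf1 the knockdown was above without overlap for 20 members (9.62% against 26.2%) and below for 119 (57.2% against 28.0%). The knockdown mean lay within 0.2 log2 units of the Ad-GFP mean for 59 members (28.4% against 42.3% of all in range), and the scramble mean within 0.2 of the Ad-Cklf1 mean for 46 (22.1% against 39.8%). Members were chosen for low Ad-GFP and knockdown and high Ad-Cklf1 and scramble values, so these cross comparisons share their libraries with the rule.

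In the fit across all 13698 tested transcripts, 163 members (78.4%) passed as higher in Ad-Cklf1 and 191 (91.8%) as lower in the knockdown, by limma with an adjusted p below 0.05. Of all tested transcripts 7.80% passed as higher in Ad-Cklf1 and 13.6% as lower in the knockdown. Nothing is read from these counts, since the rule used both comparisons. Without Ad-Cklf1 replicate 2, 106 members passed as higher in Ad-Cklf1. Over all tested transcripts 1068 were higher and 1514 lower in Ad-Cklf1, and after scaling by upper quartiles 1590 were higher and 1228 lower.

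Libraries differed in ways that touch the members. The upper quartile of FPKM was 8.86 to 8.99 in the Ad-GFP and knockdown libraries and 8.68 to 8.75 in the Ad-Cklf1 and scramble libraries, and thus moved against the members. Dividing by it made the set larger, with 302 transcripts meeting the rule, all 208 members among them. Median ratios of the libraries gave factors of 0.997 to 1.01, and 194 members, all from the 208, met the rule after that scaling. Read numbers are not recorded in FPKM values. A rough relative depth from the steps of low values was 0.976 to 1.29 with Ad-GFP, taking its replicate 1 as 1, 0.722 to 0.830 with Ad-Cklf1, 0.616 to 0.658 with scramble and 0.614 to 0.755 with the knockdown. A single transcript, ENSRNOT00000091327, reached 114345 FPKM in scramble replicate 3 and 123430 FPKM in knockdown replicate 2. It was also the highest transcript in scramble replicates 1 and 2 (34955 and 13426 FPKM) and Ad-Cklf1 replicates 1 and 3 (16197 and 15552 FPKM). Another transcript was highest in every Ad-GFP library, in Ad-Cklf1 replicate 2 and in knockdown replicates 1 and 3. The part of these features in the members' values was not tested.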

How the data were processed

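The deposited files give 1 FPKM value per transcript for each of 12 libraries. The unit was read from the file headers, which use a Cufflinks column name, and from the values. The submitters' processing notes name the build Rnor 6.0. The aligner, the quantifier and any scaling between libraries by the authors were not given in the sources used here. The planned design assumed counts where available and used its version for normalized values. Values were transformed to log2(FPKM + 1), which understates changes of low transcripts. Transcripts averaging 1 FPKM or more (13698) were fitted with limma 3.58.1 in R 4.3.3, with 4 group means and 8 residual degrees of freedom, with Benjamini-Hochberg adjustment within each of 3 comparisons. It was tested on simulated data. P-values measure the spread between these libraries, which may be technical. Members, lists and tests were chosen with earlier results of these data known. Gene lists and cell type markers could not be applied without gene names. Transcripts named are the 6 largest differences in each comparison, the 6 largest by the smaller difference, the 5 most abundant, the 3 highest and 3 lowest between arms, and 3 on each side of the threshold. Alternatives covered the pseudocount, scaling, filters, thresholds, the replicate block and leaving out each library.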

Additional observations from a re-analysis of the deposited data

Results flagged for a closer look

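All 208 members were higher in every Ad-Cklf1 library than in every Ad-GFP library and lower in every knockdown library than in every scramble library. This opposite movement was set by their choice, and the difference between the 2 effects was not tested for them.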

How the results depend on the processing

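The number of members was 208 and depended on the thresholds. A difference of 0.2 in place of 0.3 gave 519, one of 0.5 gave 31, and a mean of 10 to under 400 FPKM gave 127. It stayed within 1.5 times with a pseudocount of 0.1 (271), both scalings and overlap allowed (295). The same held with a mean of 1 FPKM or more and no upper limit (230). It also held with no limit between the arms (215), a setting chosen after seeing the data. Leaving out each library gave 192 to 257, of which 176 to 200 were among the 208, and 106 met the rule in all 12 of these settings. Over all tested transcripts, leaving out each library gave 473 to 1329 higher and 872 to 1813 lower in Ad-Cklf1, and 106 to 182 members higher; the lowest numbers came without Ad-Cklf1 replicate 2 or Ad-GFP replicate 3, for reasons that were not tested. The other settings kept the calls in the 3 comparisons within 1.5 times. The replicate block gave 158 members higher in Ad-Cklf1 and 192 lower in the knockdown. No label ties the replicate numbers to a shared culture or day, and deviations of libraries sharing a number had an r of -0.048 to 0.086, so the numbers were not treated as pairs. However, 8 of 12 libraries were closest to their own number. The correlations between libraries sharing a number were all near 0. The ranking also used correlations between libraries with different numbers, which are not given here. Whether the ranking reflects pairing was not tested. Of 784 values of named transcripts under alternatives, 770 moved by less than the SD between libraries, 14 moved by more and 0 changed sign. The 770 include every value for which the library left out belonged to the other comparison. Such values could not move, so the count overstates how stable the differences were. The difference of ENSRNOT00000085573 in Ad-Cklf1 was 1.23 with a pseudocount of 0.1 in place of 0.75.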

Other observations

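Another 4 transcripts met every condition but had a mean of 400 FPKM or more. ENSRNOT00000070912 was at 1695, 1578 and 1594 FPKM with Ad-GFP, 2041, 2103 and 1997 with Ad-Cklf1, 2383, 2170 and 2436 with scramble and 1277, 1296 and 1460 with the knockdown. Its knockdown replicate 3 was the highest of its group. ENSRNOT00000014346 had Ad-Cklf1 as its highest group, at 630, 633 and 616 FPKM, against 475, 447 and 446 in Ad-GFP. ENSRNOT00000068413 and ENSRNOT00000074226 had scramble highest, at 660, 715 and 625 FPKM and at 534, 635 and 564 FPKM. In these last 3 transcripts knockdown replicate 3 was the lowest of its group, at 376, 384 and 377 FPKM. The 7 transcripts beyond the limit between the arms all lay on the TNF-treated side, by 1.56 to 2.38 log2 units. ENSRNOT00000036343 had the largest differences among these, 0.87 in Ad-Cklf1 and -1.69 in the knockdown, and was chosen after its values were seen.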
